A study of Mus musculus with 4 samples.

Results

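On this mouse expression array, 16181 of the 55681 distinct non-control probes (29.1%) were read as long intergenic non-coding RNA (lincRNA) probes, against 39500 other probes. They were chosen by name alone and not by any measured value. No probe had a gene name that starts with lincRNA, so the members are the probes whose name is a stretch of the mm9 mouse genome followed by F or R, the forward or the reverse strand. All 16181 carry a description that starts with lincRNA, and a further 70 probes with such a description have a gene's name or an interval without a strand and were not counted. The members name 3540 intervals, or 4607 interval strands, which merge into 2223 separate loci on 20 chromosomes.

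Long intergenic non-coding RNAs are transcripts that lie between protein-coding genes, are usually made by RNA polymerase II, and are often spliced and polyadenylated without coding for a protein. Many are present at low levels and in few cell types. In macrophages, the cells that take up microbes and release inflammatory signals, several are known to be switched on by microbial products, such as lincRNA-Cox2 (Ptgs2os2), transcribed near the prostaglandin synthase gene Ptgs2, and the host transcript of the microRNA miR-155 (Mir155hg).

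RAW264.7, the cells used, is an established line of mouse cells with the features of macrophages. According to the labels, all cultures carried a stably integrated vector that expresses an artificial microRNA together with the fluorescent protein EmGFP, were selected with blasticidin and kept as bulk cultures, not as clones. The vector was either a scramble control or directed against Linc-AAM, a lincRNA of activated macrophages. Each line was kept for 4 h in DMEM medium alone or with 50 µg/mL AEPS, a polysaccharide from Actinidia eriantha roots. With the 2 vectors and the 2 media this gave 4 groups, each of 1 array. The comparisons ask what AEPS does to these transcripts and whether the lines differ. The labels give no position for Linc-AAM, no member could be matched to it by name, and the knockdown itself was therefore not checked with these probes.

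Values are log2 of the processed spot intensity minus the 75th percentile of the same array, so 0 is that percentile, and they are given below in the order scramble DMEM, scramble AEPS, knockdown DMEM, knockdown AEPS. The 75th percentiles were 587.7, 509.7, 439.1 and 448.3 intensity units, 53.4% to 58.0% of spots were well above background, and 0 spots were saturated. Among 399 probes printed 10 times, the median SD between spots was 0.0416 to 0.0496 log2 units, which is error within an array only. No culture was repeated, so the number of arrays limits the precision. All 10 macrophage markers checked, among them Csf1r, Adgre1 and Cd68, were well above background on all 4 arrays. Of the epithelial markers, 3 of 4 (Cdh1, Epcam and Krt8) were well above background on no array and none was on all 4. Of the lymphocyte markers, Cd8a and Ms4a1 were on no array and Cd3e, Cd4 and Cd79a on all 4. The fibroblast markers Col1a2 and Pdgfrb, the endothelial markers Kdr and Pecam1 and the neutrophil marker S100a8 were also on all 4, while Pdgfra, Cdh5, Mpo and S100a9 were on none. The part of such signals in the results was not tested. The deposited value table and the scanner files disagree on the lines. Over the 16181 members, each table column had a rank correlation of 1 with the scanner array of the same treatment and the other line, and of 0.941 to 0.942 with the array of its own name. Lines are therefore called "the arrays labelled scramble" and "the arrays labelled knockdown" after the scanner files. With the value table and its labels, all 32 members that differed between the lines by limma took the opposite sign, and all 823 members that changed under AEPS kept theirs.

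The members are DNA probes of 60 bases, each placed inside its named interval and on the strand of its name (16063 of 16063 with a position, 118 without one). The sequences that the results turn on most are these, 5′ to 3′, with mm9 probe positions. The first probe was bright on both AEPS arrays only, and the second had the largest rise among named probes measured above background on all 4 arrays.
A_30_P01029335 (chr17:64063469-64063528, R): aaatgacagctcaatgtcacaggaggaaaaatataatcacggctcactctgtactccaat
A_30_P01018532 (chr10:69682206-69682265, R): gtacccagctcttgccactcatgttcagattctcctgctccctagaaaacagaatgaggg
The next pair overlap on opposite strands of a locus where all tested probes rose. The capitals mark the 28 bases that are reverse complements of each other.
A_30_P01028762 (chr16:84705939-84705998, F): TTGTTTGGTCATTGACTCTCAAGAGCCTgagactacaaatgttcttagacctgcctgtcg
A_30_P01017643 (chr16:84705907-84705966, R): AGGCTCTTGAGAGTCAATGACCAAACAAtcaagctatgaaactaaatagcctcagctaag
The following probe stands for the rises beside Cd69, and the one after it for the falls beside Maml3.
A_30_P01027568 (chr6:129182657-129182716, R): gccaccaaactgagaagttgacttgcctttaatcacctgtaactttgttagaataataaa
A_30_P01029774 (chr3:51890726-51890785, R): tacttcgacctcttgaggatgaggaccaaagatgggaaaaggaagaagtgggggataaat
These 2 probes cover the same 60 bases on opposite strands, and the R probe alone passed the test for AEPS.
A_30_P01027675 (chr3:127111828-127111887, F): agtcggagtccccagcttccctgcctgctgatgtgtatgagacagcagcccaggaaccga
A_30_P01023003 (chr3:127111828-127111887, R): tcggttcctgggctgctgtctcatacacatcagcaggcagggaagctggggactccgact
The last 2 are examples of a difference between the lines in each direction.
A_30_P01020100 (chr2:116802651-116802710, R): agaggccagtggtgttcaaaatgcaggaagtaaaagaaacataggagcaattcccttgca
A_30_P01019538 (chr14:27202737-27202796, F): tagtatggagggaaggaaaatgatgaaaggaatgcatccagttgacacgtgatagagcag

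The intervals span 62 to 7128487 bases, with a median of 7315.5. An interval strand holds 1 to 10 probes, with a median of 3, and 8171 probes read the F and 8010 the R strand. Probes of an interval are not replicates of a condition, and 189 members overlapped the next probe of the same interval strand. In addition, 76 members shared their whole sequence with a probe that is no member. Chromosome 1 held most members (1199) and chromosome 19 fewest (322). The array's own gene probes give a rough view of place only, since a probe does not mark the extent of its gene. An interval without a gene probe can still lie within a gene, and some lie between probes of the same gene, such as Maml3 or Ank2. For 13268 members the interval held no gene probe, for 1586 it held one on the same strand, and for 1327 it held one on the opposite strand only.

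lincRNA probes were detected less often than the other probes of the array. A probe was counted as detected where the scanner software marked it as well above background. On the 4 arrays, 48.0%, 44.6%, 41.1% and 42.6% of the members were detected, against 61.6%, 60.2%, 57.7% and 59% of the other probes. The order of the arrays was the same in both sets, with the array labelled scramble in DMEM highest. Counted over arrays, 6057 members (37.4%) were detected on all 4 and 7797 (48.2%) on none, whereas 55.5% of the other probes were detected on all 4 and 35.4% on none. An intermediate number of arrays was more frequent among members, with 6.33%, 3.93% and 4.12% on 1, 2 and 3 arrays, against 4.05%, 2.64% and 2.43%. These are descriptions of 4 arrays, without a test.

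**Figure D1:**
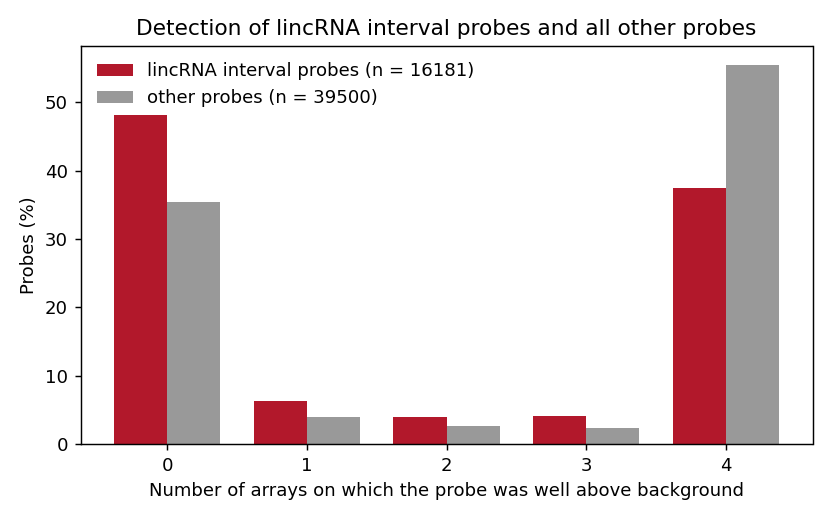
Share of probes (%) by the number of arrays on which they were well above background, for the 16181 lincRNA interval probes and the 39500 other probes. The bars at 0 arrays are 48.2% and 35.4%, and those at 4 arrays are 37.4% and 55.5%.

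Detection that followed the treatment or the line was rare. Both AEPS arrays and no DMEM array detected 114 members (0.705%, against 0.658% of other probes), and both DMEM arrays and no AEPS array detected 154 (0.952%, against 0.547%). Both arrays labelled scramble and neither labelled knockdown detected 248 members (1.53%, against 0.937%), and the reverse held for 16 (0.0989%, against 0.149%). The arrays labelled scramble also had the higher 75th percentiles and the larger shares of detected spots given above, and the part of this in the 248 probes was not tested.

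Members detected on all 4 arrays had a median GC content of 45% (quartiles 41.7% and 51.7%), and those detected on none had 43.3% (quartiles 36.7% and 45%). Of the members with a gene probe on the same strand of their interval, 47.0% were detected on all 4 arrays, against 34.2% with one on the opposite strand only and 36.6% with none. The letters AATAAA, the usual polyadenylation signal, searched on the probe's own strand, occurred in 3.92% of members and 12.6% of other probes. Within the members they occurred in 3.70% of those detected on all 4 arrays and in 4.17% of those detected on none.

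AEPS changed many lincRNA probes in both lines, in a share close to that of the array as a whole. An additive limma model of line and treatment was fitted to all probes detected on 2 or more arrays, which took in 7356 members and left 8825 untested. By adjusted p under 0.05, 451 members rose (6.13%, where 6.89% of all tested probes rose) and 372 fell (5.06%, where 6.86% of all tested probes fell). The changes were at least 2-fold, which is 1 log2 unit, for 292 of the rises and 189 of the falls. Of the members called, 290 of the 451 and 264 of the 372 were above background on all 4 arrays. A further 85 and 67 were so on the brighter treatment's arrays alone, entered the fit through those, and have a fitted size that is not a measured one. The rises lay in 263 intervals at 225 loci, and the falls in 204 intervals at 171 loci. The median effect was 0.08 log2 units over tested members and 0.06 over all tested probes. In a culture, fewer cells of a kind and less RNA per cell cannot be told apart. The fit has 1 residual degree of freedom, which is the departure of a probe's 4 arrays from additive effects. To this limma adds a variance shared by all 31268 tested probes, with a weight of 2.84 degrees of freedom. A p-value here therefore does not measure the spread between repeated cultures.

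The shares can also be given by place relative to gene probes. Of tested members with no gene probe in their interval, 376 of 5907 rose (6.37%) and 294 fell (4.98%). Of those with a gene probe on the same strand, 49 of 877 rose (5.59%) and 59 fell (6.73%), and with one on the opposite strand only, 26 of 572 rose (4.55%) and 19 fell (3.32%). Differences among these shares were not tested.

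Where a member moved at least 2-fold on both lines, the direction was nearly always the same, as the plot of the response on each line shows. Of 7092 members open to a call on both lines, 211 were at least 2-fold higher on both and 102 at least 2-fold lower on both, while 2 went opposite ways. These are 2.98%, 1.44% and 0.0282% of the members, against 3.85%, 2.57% and 0.0229% of all 30575 probes open on both lines. A further 209 (2.95%, against 2.41% of all probes) were higher on the arrays labelled scramble only and 40 (0.564%, against 0.585%) on those labelled knockdown only. The lower members were 140 (1.97%, against 2.63%) and 84 (1.18%, against 0.837%). Whether these differ between the lines was not tested.

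**Figure D2:**
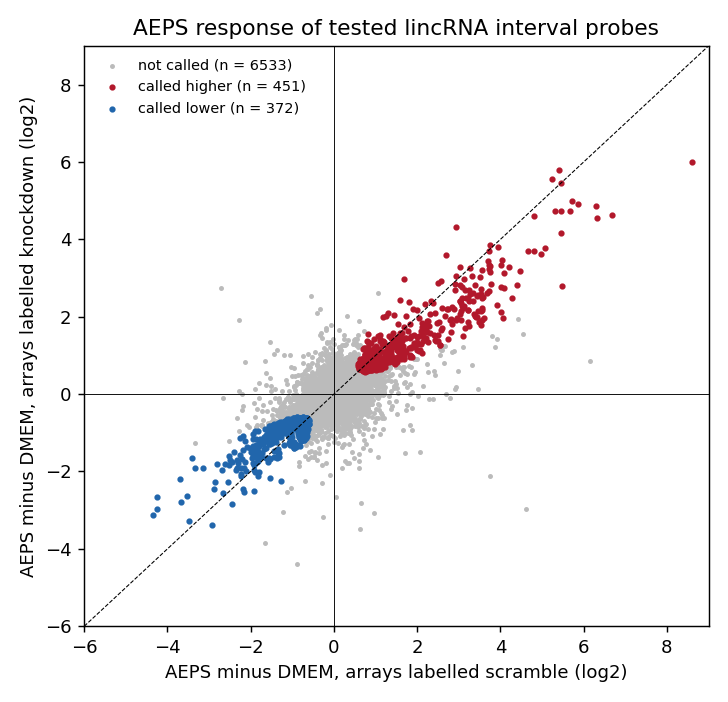
Each point is 1 of the 7356 tested lincRNA probes, with its AEPS minus DMEM difference (log2) on the scramble-labelled arrays on the x axis and on the knockdown-labelled arrays on the y axis. The 451 probes that rose (red) and the 372 that fell (blue) lie along the dashed line of equal response, and most of the large rises lie under it.

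A_30_P01029335 had the largest fitted rise, a value that rests on DMEM arrays below background. It lies in chr17:64063362-64066067 on the R strand, between Fbxl17 and Fer. Its values were -7.59, 1.02, -7.00 and -1.0, so it was bright on both AEPS arrays and not well above background on either DMEM array. Set against the weakest signal that the DMEM arrays still marked as well above background, it was at least 83.8-fold higher on the arrays labelled scramble and at least 13.2-fold higher on those labelled knockdown. Since it passed the filter through the AEPS arrays alone, its limma adjusted p of 0.0159 is given with that of the fit without the filter, 0.0291. The F probe tested at this locus had an effect of 0.01, and the nearest gene probe, of Fer, lies 424.8 kb away and did not pass the test (-0.20).

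The largest rise measured on all 4 arrays was in chr10:69669025-69686275 on the R strand, between Ccdc6 and the monocarboxylate transporter family gene Slc16a9. The probe A_30_P01018532 read -1.85, 4.44, -1.55 and 3.31, a rise of 5.57 ± 0.38 log2 units (SE, adjusted p = 0.0109), which is 78.3-fold on the arrays labelled scramble and 29.0-fold on those labelled knockdown. The AEPS arrays lay far above the DMEM arrays on both lines. The other 4 R probes of the locus were detected on 1 array at most and were not tested. The 2 tested F probes had a median effect of 0.09, and one of them, A_30_P01031764, starts just beyond the R probe and read -3.41, -3.04, -3.35 and -3.01. RefSeq lists Mrln, which codes for a small muscle membrane protein, between these flanking genes. Its array probe reads the F strand and was detected on 1 array. Of the 2 Slc16a9 probes, A_55_P2074453 was detected on no array and A_51_P493117 on both AEPS arrays only (-4.61 and -3.61).

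The locus chr16:84702353-84710928 lies between A730009L09Rik and the mitochondrial ribosomal protein gene Mrpl39. RefSeq lists the lncRNA Mir155hg and the microRNA Mir155 between these genes, and the interval was matched to them by this order only. All 12 tested probes of its 13 rose, by 1.38 to 5.46 log2 units, with medians of 5.36 over 7 F probes and 4.30 over 5 R probes. These are in part fitted values. A_30_P01025697 (5.46), A_30_P01028475, A_30_P01033227 and the R probe A_30_P01023022 were above background on the AEPS arrays alone. A_30_P01033281, which gives the F median, was so on 3 arrays. With normexp the rises of A_30_P01025697 and A_30_P01033281 were 2.25 and 2.93. The F probe A_30_P01032196 read -1.79, 3.88, -1.78 and 2.96, a rise of 5.21 ± 0.26 (SE, adjusted p = 0.0086). The R probe A_30_P01017643, whose sequence stands above, read -1.79, 3.67, -1.78 and 2.40, a rise of 4.82 ± 0.35 (SE, adjusted p = 0.0116). Its overlapping F partner A_30_P01028762 read -5.14, 0.17, -5.25 and -0.53, with 3 arrays above background. All 12 probes were thus higher under AEPS on both lines and both strands, while the nearer of 2 Mrpl39 probes had an effect of 0.25 that did not pass the test (adjusted p = 0.238).

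Beside Cd69, an early activation marker of leukocytes, the rises that passed the test were on 1 strand. Of 20 probes at this locus 9 were tested, and a difference between the strands was not tested. In chr6:129151512-129208737, between Clec2d and Cd69, all 8 tested R probes rose, by 2.80 to 5.39, and the F probe tested had an effect of 0.11 (adjusted p = 0.63). Of the R probes only A_30_P01022593, with the smallest rise (2.80), was above background on all 4 arrays. The R probes other than this one and A_30_P01025159 entered the fit through the AEPS arrays alone. The larger sizes are thus fitted values. A_30_P01027568, of the R strand, read -6.46, -1.23, -6.86 and -1.30. It was not well above background in DMEM and was at least 17.7-fold higher under AEPS on the arrays labelled scramble and at least 10.6-fold higher on those labelled knockdown. The genes on either side rose too, Clec2d by 5.24 and Cd69 by 5.30, as did the probe of the RefSeq lncRNA 2310001H17Rik inside the interval, by 3.86 (adjusted p = 0.00888). For Cd69 and 2310001H17Rik these are fitted values of probes below background in DMEM, and the Clec2d probe was above background on 3 arrays only.

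At 2 further loci a named probe was bright on the AEPS arrays alone. A_30_P01021842, in chr2:157239202-157239982 on the F strand between Manbal and the tyrosine kinase gene Src, read -7.41, -0.73, -6.01 and -1.39, at least 25-fold and at least 9.99-fold higher on the 2 lines (adjusted p = 0.0316 without the filter). The nearest gene probe, of Manbal, rose by 0.96 (adjusted p = 0.033). Src, below background in DMEM, rose by a fitted 4.25. A_30_P01023609, in chr1:94608820-94634671 on the R strand between Otos and the heparan sulfate proteoglycan gene Gpc1, read -6.74, -1.33, -6.65 and -0.85, at least 16.5-fold and at least 14.5-fold higher (adjusted p = 0.0177 without the filter). The probes of Otos (0.45) and Gpc1 (1.28, adjusted p = 0.0555) did not pass the test. At this locus 6 of 7 tested R probes rose and 0 of 2 F probes did.

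The loci with the most probes that rose were picked out after their values were seen. Of these loci, 2 stand in the interferon-inducible gene cluster of chromosome 1, whose proteins include sensors of DNA. Between Ifi207 and Ifi204 (chr1:175653557-175672031) all 16 tested probes rose, by 2.32 to 3.14, on 5 F and 11 R probes. Between Ifi204 and Mndal (chr1:175705225-175717250) all 10 rose, by 1.29 to 3.38. The neighbouring Ifi207 rose by 2.73, Ifi204 by 4.30 and 2.95 on its 2 probes, and Mndal by 1.70. These genes are close relatives of each other, so which copy a probe reads is uncertain.

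At chr1:139713316-139913366, between Nr5a2 and Ptprc, the gene of the leukocyte surface phosphatase CD45, 15 of 17 tested F probes rose with a median of 0.90, and 0 of 6 R probes did, with a median of 0.20. RefSeq lists the microRNAs Mir181a-1 and Mir181b-1 between these genes. Ptprc, on the R strand, had an effect of 0.65 that did not pass the test (adjusted p = 0.0656). At chr9:88575075-88614651, beside Bcl2a1d, a member of the anti-apoptotic Bcl2a1 family that rose by 2.75, 12 of 14 tested probes rose, 5 of 5 on F and 7 of 9 on R.

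**Figure D3:**
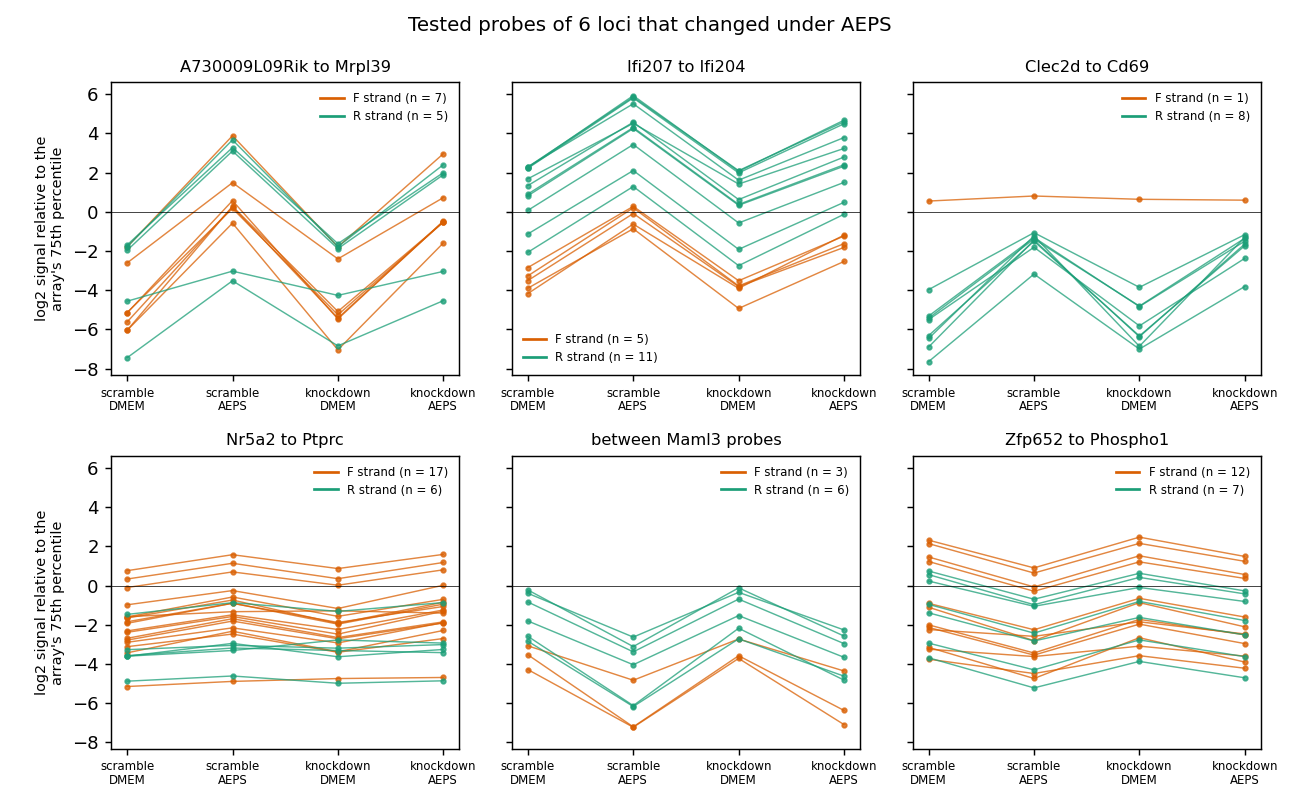
Values of each tested probe (log2 relative to the array's 75th percentile) on the 4 arrays at 6 loci named by their flanking genes, with F probes in orange and R probes in green. All 12 probes of the Mrpl39 locus and all 16 of the Ifi207 locus are higher under AEPS on both lines. Beside Cd69 and Ptprc the R or the F probes alone passed the test.

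Of the 10 falls named by size, all but that of A_30_P01029774 ended below background on at least 1 AEPS array, so their full size is not known. In chr15:36800254-36809571 on the R strand, between the 14-3-3 gene Ywhaz and Zfp706, A_30_P01025315 read -1.65, -5.89, -1.03 and -4.0. It was at least 10.1-fold lower under AEPS on the arrays labelled scramble and 7.82-fold lower on those labelled knockdown (adjusted p = 0.0169). The next probe, A_30_P01021165, read -0.95, -5.20, -0.41 and -3.06 (adjusted p = 0.0247). Both DMEM arrays were far above both AEPS arrays. The third probe of the locus had an effect of -0.60 that did not pass the test, and the probes of Ywhaz (0.10 to 0.29) and Zfp706 (-0.03 and 0.02) did not pass it either.

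3 neighbouring loci between probes of Maml3, a coactivator of Notch target genes, fell together with it. At chr3:51890691-51891781 all 3 R probes fell, among them A_30_P01029774, which read -0.22, -3.11, -0.12 and -2.57, a change of -2.67 ± 0.16 (SE, adjusted p = 0.00955). At chr3:51804655-51805883 all 3 R probes fell, by -2.18 to -3.09, and at chr3:51784862-51793999 all 3 F probes fell, by -1.69 to -3.23. The detected Maml3 probes, on the R strand, fell by 2.10 and 1.91. The DMEM and AEPS arrays did not overlap in any of these 9 probes, of which 3 were below background on both AEPS arrays and 1 on the scramble AEPS array.

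Between Tacc1 and the growth factor receptor gene Fgfr1 (chr8:26343277-26352902), 8 of 11 tested probes fell, 3 of 3 on F and 5 of 8 on R. A_30_P01022571 read -3.00, -6.49, -3.71 and -6.98, at least 3.97-fold and at least 2.12-fold lower. It passed the filter through the DMEM arrays alone, and its limma adjusted p of 0.00795 was 0.0205 without the filter. A_30_P01017480, in chr8:26347473-26348052 of the same locus, read -3.45, -5.91, -4.22 and -7.06. The probe of Tacc1 had an effect of -0.17 that did not pass the test. The largest fitted fall of all, of A_30_P01022574 in chr11:52463475-52485075 on the R strand, came from -2.90 and -4.0 in DMEM against -7.23 and -7.12 under AEPS, which bounds it at no more than at least 4.26-fold and at least 1.74-fold. A_30_P01027618, in chr11:68200716-68214458 between Ntn1 and Pik3r5, read -3.45, -7.15, -4.56 and -6.74 (at least 2.89-fold and at least 1.18-fold lower).

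The loci with most falls were also picked out after their values were seen. At chr11:95627874-95640824, flanked by probes of Zfp652 and Phospho1, 17 of 19 tested probes fell. These were 10 of 12 on F and 7 of 7 on R, and the median effect was -1.18. The 2 probes of the zinc finger gene Zfp652, on the F strand, changed by -1.16 (adjusted p = 0.0303) and -0.92 (adjusted p = 0.0571). The one with -1.16 lies at chr11:95633588-95633647, inside this locus. Whether F members of the locus read the Zfp652 transcript was not tested. Between Klf14 and 2210408F21Rik (chr6:31017987-31293337), where RefSeq lists Lncpint, Mir29a and Mir29b-1, 11 of 27 fell, 8 of 12 on F and 3 of 15 on R. Between Ift22 and Fis1 (chr5:137392195-137426421), 8 of 11 F probes fell and 0 of 7 R probes.

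Of the members that passed the test and also changed at least 2-fold, the one closest to that fold was A_30_P01032827, between Zfp652 and Phospho1, at -1.0 ± 0.19 (SE, adjusted p = 0.0491). The closest below it was A_30_P01022349, between Nr5a2 and Ptprc, at 1.0 ± 0.13 (SE, adjusted p = 0.0254).

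The AEPS effect also varied within an interval strand. Over 1884 interval strands with 2 or more tested probes, the median range of the AEPS effect between their probes was 0.33 log2 units, with an upper quartile of 0.65, and over the 269 that held a probe changed at least 2-fold it was 1.12. Of 493 interval strands with a probe that passed the test, 173 had 2 or more and 1 had probes that passed in both directions. At the level of loci, where both strands are joined, 384 had such a probe, 167 had 2 or more and 12 had probes in both directions.

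Few intervals had probes that passed the test for AEPS on both strands. Detection of a strand is given first. A strand can hold up to 10 probes, so joint detection alone does not show a relation of the strands. Of 1067 intervals with probes on both strands, both were detected in 684 (64.1%), 1 strand in 322 (30.2%) and neither in 61 (5.72%), a strand counting as detected with a tested probe. Among the 684, rises that passed the test were read on both strands in 18 and on 1 strand only in 83. Falls were read on both in 9 and on 1 only in 77, and 7 rose on 1 strand and fell on the other. By limma 6.89% of all tested probes rose and 6.86% fell. At such shares few joint calls are read whatever the relation of the strands, so these counts alone do not show that relation. The strands' median effects had a Pearson r of 0.41 and a Spearman rho of 0.21 over these 684 intervals, a description of points that share the same 4 arrays.

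Probe pairs that overlap on opposite strands allow a closer comparison, because they cover the same genomic bases. They were picked out after the values were seen. Of 2922 such pairs, 2915 held reverse complements of each other over the shared bases. Both probes were detected on all 4 arrays in 495 pairs, neither on any array in 712, and 1 on all 4 with its partner on none in 935. In 680 pairs both probes were tested, and they shared a median of 33.5 bases. By limma, 11 rose on both strands, 2 fell on both and 1 passed the test in opposite directions. Another 98 passed it on 1 strand only and 568 on neither. Of the 26 tested pairs that share all 60 bases, 7 passed on 1 strand only, 19 on neither and 0 on both. A probe that did not pass is not shown to be unchanged, and the difference between the strands was not tested.

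The pair at chr3:127111828-127111887, among the probes of the cytoskeletal adaptor gene Ank2, passed the test on 1 strand only. The R probe A_30_P01023003 read -4.02, -1.73, -4.15 and -2.38, a rise of 2.03 ± 0.18 (SE, adjusted p = 0.0149), and was higher under AEPS on both lines. The F probe A_30_P01027675, the exact reverse complement, read 0.04, 0.14, -0.07 and 0.00, an effect of 0.09 (adjusted p = 0.642). Between Crybg3 and Arl6, at chr16:59597917-59597976, it was the F probe A_30_P01029874 that rose, with -3.81, -1.95, -3.47 and -1.96 (1.68 ± 0.15, SE, adjusted p = 0.0149), while the R probe A_30_P01019030 read 0.78, 0.57, 0.78 and 0.65 and did not pass the test (-0.17). At this locus 9 of 13 tested R probes fell, 1 of 6 F probes rose, and Crybg3, on the R strand, fell by 1.64 (adjusted p = 0.0133). The labelling protocol in the labels goes through double-stranded cDNA to cRNA, and a reading from the wrong strand was not tested.

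**Figure D4:**
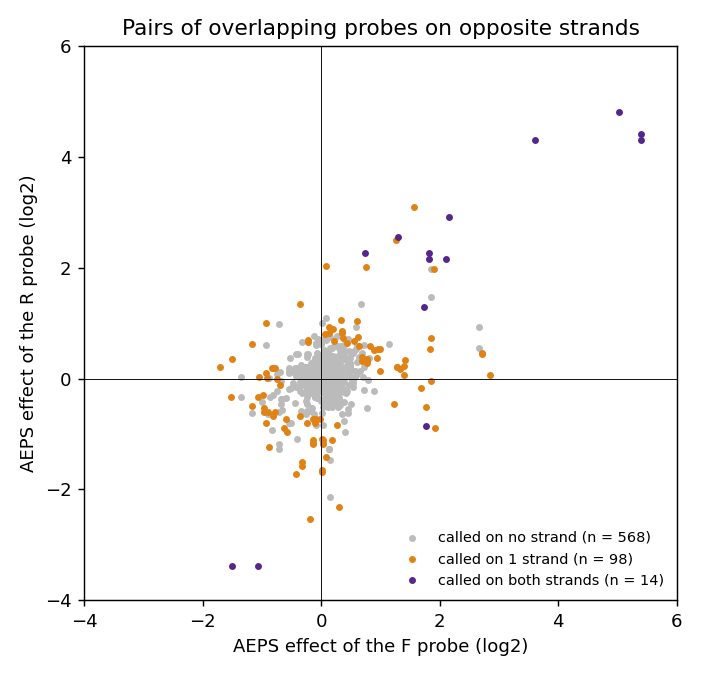
AEPS effect (log2, limma) of the F probe (x axis) and the R probe (y axis) of the 680 overlapping pairs tested on both strands. The 568 pairs that passed the test on neither strand cluster at 0, and the 98 that passed on 1 strand only (orange) spread along the axes. Of the 14 that passed on both (purple), 13 lie in the quadrants of equal direction.

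Members tended to change with the nearest gene. Within 100 kb, 6465 tested members had a gene probe and for 5124 that probe was itself tested, in all 1093 gene probes, so that many members share a neighbour. Beside the 325 members that rose, the nearest gene had risen in 154 cases (47.4%) and fallen in 13 (4%). Beside the 272 that fell, the gene had fallen in 65 (23.9%) and risen in 3 (1.1%). Beside the 4527 that did not pass the test, 313 genes had risen (6.91%) and 280 had fallen (6.19%). Across the 5124 members the 2 effects had a Pearson r of 0.41 and a Spearman rho of 0.39, with r of 0.48 for 2884 members on the gene's strand and 0.31 for 2240 on the opposite strand. These values describe members that share arrays, neighbours and in part transcripts, and carry no p. The 76 members with the sequence of a probe that is no member were not left out. For example, A_30_P01029562 and the Pvt1 probe A_55_P2155654 both lie at chr15:62082471-62082530, with effects of 0.28 and 0.29. The part of such pairs in the agreement was not tested. Within 10 kb, 53.5% of the genes beside members that rose had risen and 30.1% of those beside members that fell had fallen.

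A list of 100 immune response genes was taken the other way, from the gene to the nearest member. For 99 with a position on the array, 20 had a member within 100 kb, and the nearest one was tested for 13. Of these 13 members 2 rose and 0 fell by limma, where 6.89% and 6.86% of all tested probes did. Their median effect was 0.28, while 10 of the 13 genes rose. The first of the 2 stands beside Ptgs2. A_30_P01020139, in chr1:152001112-152012796 on the R strand, 53.0 kb from the Ptgs2 probe and on the opposite strand, read -3.23, -0.89, -3.42 and -1.02, a rise of 2.37 ± 0.12 (SE, adjusted p = 0.00854). It was higher under AEPS on both lines to nearly the same degree, and RefSeq lists Ptgs2os2 between Ptgs2 and Pdc, the genes that flank it. Ptgs2 rose by 4.31 (adjusted p = 0.0143). The second, A_30_P01019456 in chr4:155560050-155570900, 3.96 kb from the ubiquitin-like interferon response gene Isg15, read -3.37, -2.61, -3.23 and -2.54, a rise of 0.72 ± 0.12 (SE, adjusted p = 0.0396), beside a rise of 6.32 of Isg15. The other 11 did not pass the test, such as the member beside the histidine decarboxylase gene Hdc (-0.20, where Hdc, below background in DMEM, rose by a fitted 8.97), beside the growth factor gene Csf1 (-0.05, Csf1 5.39) and beside the signalling inhibitor gene Socs3 (0.50, Socs3 4.95).

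For lncRNAs that have a gene name on the array, and are not members, a list of 74 names found 48, of which 35 were tested. Of these 35, 5 rose and 2 fell, where 6.89% and 6.86% of all tested probes did, and their median effect was 0.25. Those that rose were Morrbid (1.37), known for the control of the cell death gene Bcl2l11 in myeloid cells, Mirg (1.15), the microRNA host Mir22hg (1.15), and the snoRNA hosts Snhg3 (0.83) and Zfas1 (0.73). Neat1, the scaffold of nuclear paraspeckles, fell by 0.74 (adjusted p = 0.038), and Peg13, an imprinted RNA, fell by 1.11 (adjusted p = 0.0333). All 5 probes with the name NEAT1 and a lincRNA description fell, with a median of -0.83.

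Each line was also compared by size. With 1 array a group there is no test, and a member was counted where 2 arrays above background differed at least 2-fold, or where its bound did. On the arrays labelled scramble 525 of 8159 members were higher under AEPS (6.43%, where 6.66% of all probes were higher) and 298 were lower (3.65%, where 5.17% of all probes were lower). With background corrected by normexp these counts were 245 and 72, and with the column pair that the value table names scramble 250 and 235. On the arrays labelled knockdown 264 of 7317 were higher (3.61%, where 4.46% of all probes were higher) and 224 lower (3.06%, where 3.67% of all probes were lower), with normexp 116 and 32, and with the value table's knockdown columns 456 and 364. The scramble-labelled pair thus had the larger counts by the scanner files' labels and the smaller ones by the table's. Both arrays were above background for 354 and 193 of the first set and for 181 and 140 of the second. The largest differences measured on both arrays were those of the loci of chromosomes 10 and 16 above, on either line. Among the falls, A_30_P01022977 and A_30_P01019086, in chr7:16633756-16634410 between Bicra and Zfp541, were 6.41-fold and 5.76-fold lower on the arrays labelled scramble, and A_30_P01022812, beside the corepressor gene Rcor3, was 5.73-fold lower.

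The bounds bring out probes seen on a single array. A_30_P01032913, in chr16:31321192-31333486 on the R strand near the apolipoprotein gene Apod, read -0.67, -7.18, -6.91 and -7.04, so it was bright in scramble DMEM alone, at least 19.9-fold above scramble AEPS and at least 16.5-fold above knockdown DMEM. A_30_P01033147, in chr10:116401772-116404452, read -5.61, -5.35, -1.25 and -5.24, bright in knockdown DMEM alone, at least 11.7-fold above knockdown AEPS and at least 17.4-fold above scramble DMEM. A_30_P01028371, in chr11:69195483-69195857 near Cyb5d1, read -7.40, -7.00, -1.47 and -6.94, likewise bright in knockdown DMEM alone. Each rests on 1 spot of 1 array.

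Between the lines, few members differed in both treatments. By limma, 18 of 7356 were higher on the arrays labelled knockdown (0.245%, where 0.377% of all tested probes were higher), at 10 loci. Another 14 were lower (0.190%, where 0.288% of all tested probes were lower), at 8 loci. Of the members called, 12 of the 18 and 4 of the 14 were above background on all 4 arrays. A further 2 and 7 were so on the brighter line's arrays alone and entered the fit through those. With normexp background the counts were 95 and 15, with scaling to the probes detected on all arrays 8 and 4, and with the value table and its labels 13 and 16. With the eBayes trend they were 126 and 95, and without the filter on dim probes 0 and 0, so that no member kept its call. There the 9 members named by size for the line had an adjusted p of 0.0808 to 0.0979. A_30_P01031088, A_30_P01026168 and A_30_P01024833, also given below, are not among these 9. With normexp these 9 kept their direction, at 1.23 to 1.99 upward and -1.08 to -0.88 downward, smaller than the values below. An unadjusted p under 0.05 was found for 709 and 414. The median line effect was 0.06 over members and 0.00 over all tested probes.

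In the main fit the largest difference upward was at adjacent loci between Tmco5 and Gm13981 on chromosome 2, where RefSeq lists the lncRNAs Gm46758 and D330050G23Rik. A_30_P01020100, in chr2:116802549-116803286 on the R strand, read -3.72, -4.48, -0.82 and -1.21, higher on the arrays labelled knockdown by 3.08 ± 0.15 (SE, adjusted p = 0.0252), and A_30_P01022588 of the same interval was higher by 2.82. Next to it, in chr2:116798318-116802164, A_30_P01030897 and A_30_P01031050 were higher by 2.90 and 2.74. The arrays of the 2 lines did not overlap in these 4 probes, and the last 2 were not well above background in scramble AEPS. The nearest tested gene probe, of Gm13981, had a line effect of 0.02. With normexp A_30_P01020100 was higher by 1.78, less than A_30_P01028541 downstream of Myc (1.99).

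Downstream of the oncogene Myc, in the region of the lncRNA gene Pvt1, 5 of 16 tested F probes and 0 of 6 R probes of the locus chr15:61984389-62102500 were higher on the arrays labelled knockdown. A_30_P01025925, in chr15:62007025-62090191 on the F strand, read -5.17, -4.35, -2.0 and -1.53, higher by 3.0 ± 0.15 (SE, adjusted p = 0.0252), and A_30_P01028541 read -3.27, -2.36, -0.37 and 0.14 (2.69). Both arrays labelled knockdown lay above both labelled scramble. The Pvt1 probe that lies in this region and is no member was higher by 3.84 (adjusted p = 0.0197), and a second Pvt1 probe by 0.93, which did not pass the test (adjusted p = 0.103). Between this locus and Myc, A_30_P01031088 and A_30_P01026168, in chr15:61870759-61938796, were higher by 2.65 and 2.44 (adjusted p = 0.026 and 0.046). Myc itself had a line effect of 0.25 (adjusted p = 0.495).

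Among the differences downward, A_30_P01019538 had the largest fitted value. It lies in chr14:27176652-27227602 on the F strand, between Duxbl2 and Slmap. It read -2.41, -3.22, -6.87 and -7.02 and was not well above background on either array labelled knockdown, which bounds it as at least 4.92-fold lower in DMEM and at least 2.98-fold lower under AEPS. It passed the filter through the scramble-labelled arrays alone, and its adjusted p of 0.0252 was 0.0808 without the filter. The other 3 tested probes of the locus had line effects of 0.11 to 0.55, which did not pass the test. A_30_P01031565, in chr1:196843592-196865102 between Cd34 and Cd46, where RefSeq lists Mir29b-2 and Mir29c, read -1.98, -2.23, -4.90 and -4.86, at least 6.66-fold and at least 5.92-fold lower (adjusted p = 0.0252, and 0.088 without the filter). The other 4 tested F probes of this locus had line effects of -0.33 to 0.48, which did not pass the test. A_30_P01021827, in chr1:84961943-84962737, read -4.15, -0.43, -6.85 and -3.51, so it was lower on the arrays labelled knockdown in both treatments (-2.89, adjusted p = 0.026, but -1.08 and 0.173 with normexp, 0.0506 with the other percentile and 0.088 without the filter) and rose under AEPS by 3.53.

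In chr8:110197171-110206546, between Psmd7 and Lncbate1, 4 of 5 tested R probes were lower, among them A_30_P01024833, which was above background throughout with -0.04, 0.23, -2.26 and -1.83 (-2.14, adjusted p = 0.028).

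**Figure D5:**
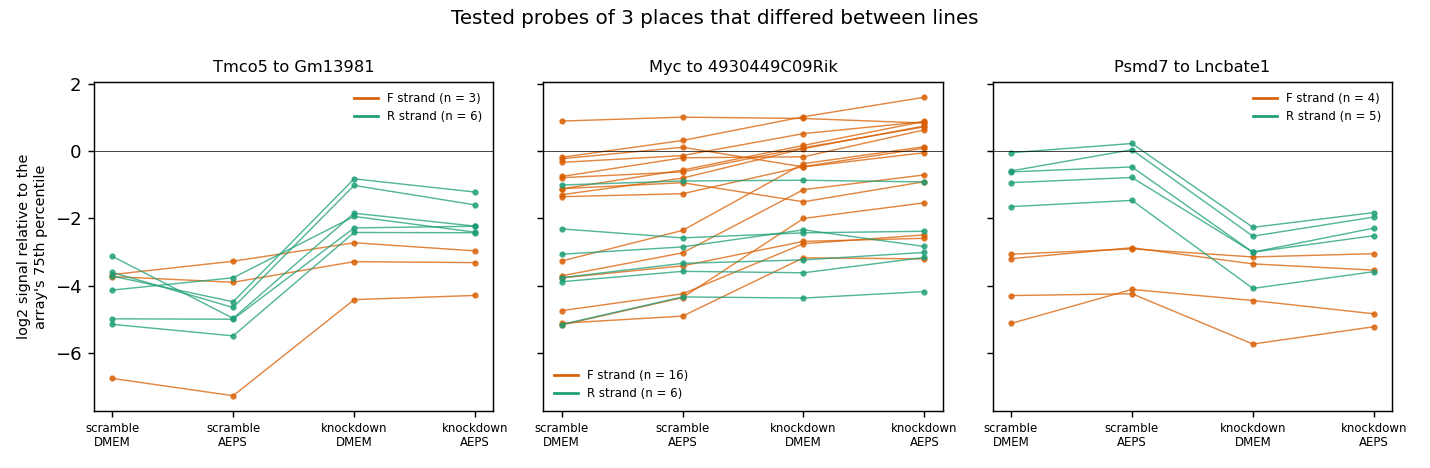
Values of each tested probe (log2 relative to the array's 75th percentile) on the 4 arrays at 3 places named by their flanking genes, F probes in orange and R probes in green. The R probes between Tmco5 and Gm13981 and part of the F probes beside Myc are higher on the arrays labelled knockdown, and the R probes between Psmd7 and Lncbate1 are lower.

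In DMEM alone, 218 of 7911 members were higher by size on the array labelled knockdown (2.76%, where 2.4% of all probes were higher) and 88 lower (1.11%, where 1.43% of all probes were lower). Under AEPS, 123 of 7560 were higher (1.63%, where 1.8% of all probes were higher) and 201 lower (2.66%, where 2.69% of all probes were lower). With normexp the pairs of counts were 51 and 14 in DMEM and 27 and 83 under AEPS. The value table's labels turn the balance round, to 94 and 190 in DMEM and 208 and 132 under AEPS. Under AEPS, members between C130026I21Rik and the nuclear body gene Sp110 were among the lowest. In chr1:85304494-85305390, A_30_P01024650 read -2.32, 1.74, -3.14 and -1.18 and A_30_P01030738 read -2.52, 1.5, -3.57 and -1.45, so the array labelled knockdown was 7.56-fold and 7.72-fold lower under AEPS. In both probes the 2 DMEM arrays differed less than the 2 AEPS arrays, and both probes rose with AEPS (3.02 and 3.07).

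The response to AEPS was smaller on the arrays labelled knockdown for most members that responded. How far the lines differ in response was taken as the AEPS effect of the knockdown-labelled pair less that of the scramble-labelled pair. For the 6057 members detected on all 4 arrays it was 1 or more in 31 (0.512%, where 0.522% of all such probes were) and -1 or less in 151 (2.49%, where 1.68% of all such probes were), and with normexp 3 and 53. With the labels of the value table there were 130 and 39. Of the 343 whose mean effect reached 2-fold, the knockdown-labelled pair gave the smaller one in 297 (86.6%), and among all 2222 such probes of the array it was 83.8%. A difference in response has no residual degree of freedom here and was not tested.

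The lowest difference in response was that of A_30_P01026610, in chr17:84470764-84486339 on the R strand, which read -5.07, -2.15, -4.46 and -4.34, a response of 2.92 in the scramble-labelled pair and 0.12 in the knockdown-labelled pair. A_30_P01028908, between Sec31a and Lin54, read -4.11, -1.42, -3.91 and -3.91, and A_30_P01030839, between Pea15b and the adhesion receptor gene Adgrl3, read -3.90, -1.52, -3.31 and -3.43. In these 3 probes scramble under AEPS alone stood out. A_30_P01028594, among the Ank2 probes, read -3.17, 0.76, -3.30 and -1.88, so that it was higher under AEPS on both lines, by 3.92 and 1.42. In the other direction A_30_P01029176, next to the zinc finger gene Zfp53, read -2.10, -4.76, -4.46 and -4.57, highest in scramble DMEM, for a difference of 2.55. A_30_P01022778, between Sgsm1 and Aym1, read -1.88, -3.69, -3.80 and -3.51 (2.10). A_30_P01022690, between Oxtr and Rad18, read -4.77, -4.85, -4.41 and -2.62 (1.87), highest in knockdown AEPS.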

How the data were processed

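Total RNA of 4 cultures was read on 1 array each, labelled with Cy3, per the labels. The deposited scanner files hold spot intensity on a linear scale from Agilent Feature Extraction 10.7.1.1, background-subtracted within each array and not scaled between arrays, per the file headers, with dim spots given a surrogate value. The deposited value table, an alternative here, is on a log2 scale. The sources used here do not say how the authors made it. It was matched to the scanner arrays by rank correlation. Its centring is unknown. All arrays share 1 slide and 1 scan. Positions are those of the files for mm9.

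Control and outlier spots were left out, the spots of a probe were averaged (detected where most of them were well above background), and the 75th percentile of an array's non-control spots was taken from its values after log2. With limma 3.58.1 (R 4.3.3), line and treatment were fitted as additive terms to the 31268 probes seen on at least 2 arrays. P-values were adjusted over all of them by Benjamini-Hochberg, with a threshold of 0.05. 4 members that met this filter lacked a value on an array and were left out. The fit was tested on simulated data. Pairs of arrays were compared by size, at 2-fold. For a probe above background on 1 of 2 arrays a bound is given, which sets the bright value against what the dim array could still detect (its weakest signal well above background) or against the dim value itself if that is larger. A fitted value of such a probe is no bound. Named members follow a rule of size: the 10 largest rises and falls for AEPS, the 6 largest each way for the line, the 4 largest bounds and 6 largest measured differences each way per pair of arrays, 4 each way for the difference in response, the member nearest to each listed immune gene, the 6 brightest, and those closest to 2-fold. Members of 1 interval that this rule names are not reported here. The members and lists were chosen with earlier results of these data known. A gene table of NCBI RefSeq named the other probes (26582 by accession, 2602 by symbol, 497 by synonym, 9819 keep the design's name or none). Its coordinates are of another build and were used only for the order of genes.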

Additional observations from a re-analysis of the deposited data

Results flagged for a closer look

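4 members had differences of at least 2-fold in opposite directions, between the lines' responses to AEPS or between the treatments' line differences. None of these contrasts was tested, since each group holds 1 array. A_30_P01020151, in chr3:34497447-34501170 on the R strand between Dnajc19 and Sox2, read -5.78, -3.71, -3.34 and -4.84 in the order scramble DMEM, scramble AEPS, knockdown DMEM, knockdown AEPS. Its bounds were an AEPS response of 1.66 log2 units in the scramble-labelled pair and -1.46 in the knockdown-labelled pair, and a line difference of 2.03 in DMEM and -1.09 under AEPS. A_30_P01032443, in chr5:121759042-121789992 on the F strand near Hectd4, is the only one of the 4 detected on all arrays, with -4.22, -3.10, -3.42 and -4.46. Its response was 1.11 in the scramble-labelled pair and -1.04 in the knockdown-labelled pair.

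A_30_P01021345, in chr7:86651948-86675223 on the F strand between Polg and Mir9-3hg, had bounds on its line difference of 1.16 in DMEM and -3.14 under AEPS. A_30_P01030788, in chr12:33808493-33829143 on the F strand between F730043M19Rik and Atxn7l1, had bounds of 1.47 and -2.05. Both were detected in scramble AEPS and knockdown DMEM only. Among 7092 members open to a call on both lines, 2 had responses in opposite directions.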

How the results depend on the processing

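No paired analysis was possible because each group holds 1 array and the groups share fewer than 2 replicate numbers. A block for slide or scan was not run, since all arrays share both. Leaving out an array was not run, since each group would be empty. Without replicates no interval can be given for a comparison of 2 arrays. The 20 members named for AEPS kept direction and call under normexp, quantile normalization, another percentile, eBayes trend and the value table, and 1 lost its call without the filter on dim probes. Their sizes did not hold under normexp, where rises of 5.21 to 7.31 became 1.88 to 5.08 and falls of -3.73 to -2.65 became -2.03 to -0.43. Of the 9 named for the line, 1 lost its call under normexp, 2 under the other percentile and 9 without the filter. Where calls changed, the cause was not tested.

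Counts are given as higher and lower. For AEPS over both lines (451 and 372) they were 177 and 107 with 1 probe per name, 129 and 64 without the filter, and 717 and 609 with eBayes trend. For the line (18 and 14) they were 95 higher with normexp, 8 and 4 with the percentile over probes detected on all arrays, 7 and 4 with 1 probe per name, 0 and 0 without the filter, 42 higher among probes detected on all 4 arrays, and 126 and 95 with eBayes trend. For scramble (525 and 298) they were 245 and 72 with normexp, 250 higher in the value table, 198 and 88 with 1 probe per name, 193 lower with both arrays detected, and 1163 and 759 at 1.5-fold. For knockdown (264 and 224) they were 116 and 32, 456 and 364, 103 and 63, 140 lower, and 702 and 692 under the same settings. For the line in DMEM (218 and 88) they were 51 and 14, 94 and 190, 83 and 32, 120 and 35, and 658 and 274. For the line under AEPS (123 and 201) they were 27 and 83, 208 and 132, 37 and 69, 75 and 129, and 505 and 477. For the difference in response (31 and 151) they were 3 and 53 with normexp, 130 and 39 in the value table, 11 and 61 with 1 probe per name, and 157 and 296 among probes detected on 2 or more arrays. With the scanner's mark for positive and significant signal, 70.5%, 68.2%, 64.2% and 65.9% of members were detected. The other probes had 75.4%, 74.3%, 71.1% and 73.0%, so members were again lower, by less than with the main mark.

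The value table's labels reversed all 9 line effects and all 8 differences in response named here. The line effect became 4.31 for A_30_P01019538, -3.06 for A_30_P01020100, 3.07 for A_30_P01021827, -2.80 for A_30_P01022588, -2.95 for A_30_P01025925, -2.67 for A_30_P01028541, -2.89 for A_30_P01030897, -2.72 for A_30_P01031050 and 2.79 for A_30_P01031565. The difference in response became -1.98 for A_30_P01022690, -2.12 for A_30_P01022778, 2.76 for A_30_P01026610, 2.45 for A_30_P01028594, 2.66 for A_30_P01028908, -2.59 for A_30_P01029176, -1.95 for A_30_P01030580 and 2.45 for A_30_P01030839.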

Other observations

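The brightest members stood 8.17 to 9.08 log2 units above the 75th percentile on every array and did not pass the test for AEPS or line. They are A_30_P01026458 (chr11:22681800-22707775, between Tmem17 and B3gnt2), A_30_P01021243 (chr17:48068261-48087905, between Foxp4 and 1700122O11Rik), A_30_P01022075 (chr17:17481706-17482457, between Gm6712 and Riok2), A_30_P01030669 (chr7:108209996-108216032, between P2ry2 and Fchsd2), A_30_P01021065 (chrX:138967807-138968413, between Acsl4 and Gm15032) and A_30_P01020015 (chr17:39982023-39983277, between Olfr136 and Pgk2).

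Some members lie over microRNA hairpins. Searched against 1005 mouse hairpins of RefSeq on both strands, 16 member probes shared 25 or more bases with 1 of 11 hairpins, and 10 of them hold a whole mature sequence or its reverse complement. Of these 16, 5 were detected on all 4 arrays and 11 on none, and 0 of the 5 tested passed the limma test for AEPS. These probes were picked out after the values were seen. A probe for a labelled long transcript does not measure the mature microRNA. Shown here are 2 detected probes with a whole mature sequence, in capitals.
A_30_P01031395 (chr15:85412264-85549139, F, mmu-let-7c-5p): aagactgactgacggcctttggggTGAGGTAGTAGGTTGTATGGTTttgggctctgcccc
A_30_P01029937 (chr12:110973190-110987668, F, mmu-miR-410-3p): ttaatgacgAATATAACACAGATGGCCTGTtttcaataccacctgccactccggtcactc
A_30_P01031395 read -3.28, -3.55, -2.76 and -2.93, an AEPS effect of -0.22 (adjusted p = 0.281). A_30_P01029937 read -3.36, -3.01, -3.61 and -3.31, an AEPS effect of 0.33 (adjusted p = 0.156).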
